A study of Mus musculus with 30 samples.

Results

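The cytosolic ribosome is built from ribosomal RNA and a fixed set of ribosomal proteins, and the genes for those proteins were followed here across all groups of an experiment on C2C12 myotubes. Members were taken by symbol alone: Rps, Rpl or Rplp followed by a number and at most a short suffix, which leaves out pseudogene symbols and the Rps6k kinases. The rule took 80 of the 16025 gene symbols in the table, 31 of the small subunit and 49 of the large subunit, the 3 stalk genes Rplp0, Rplp1 and Rplp2 included. Of the 80, 78 passed the filter on low counts. The paralogue Rpl39l and Rps4l did not pass and had 0 or 1 count in every library. Rps4l is annotated as a transcribed processed pseudogene, although its symbol meets the rule. Rps4x and Rpl37 would meet the rule but are not among the symbols in the table, so they are not analysed here. Ribosomal genes with other kinds of symbol, such as Rpsa and Rack1, lie outside the naming rule.

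C2C12 is a wild-type mouse myoblast line, and the cells had been grown to confluence and fused into myotubes in low serum before treatment. The groups were control, D-galactose alone (Dgal, 20 mg/mL for 24 h), 4 red ginseng preparations alone, and each preparation for 12 h followed by D-galactose for 24 h. The preparations were Korean Red Ginseng water extract (RGW), its saponin fraction (SFr) and its non-saponin fraction (NSFr), each at 100 µg/mL, and the purified ginsenoside Rb2 at 20 µM. Each of the 10 groups had 3 libraries, called biological replicates by the submitters. All cells came from 1 line, so that p-values describe the spread between cultures of that line. The preparations alone are labelled 12 h, and whether those cultures were kept for a further 24 h is not stated. High D-galactose is a common laboratory model of cell ageing, and the design asks what it does with and without the preparations.

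Poly(A) RNA was sequenced, and libraries held 22209229 to 30218353 estimated counts, so that 3 counts equalled 0.0993 to 0.135 CPM (counts relative to the library's total). Defining myotube markers such as Acta1 and Ckm were abundant, with the 12 listed markers summing to 22587 to 32417 CPM. The SFr libraries were lowest in that sum, at 22587 to 23944 CPM against 30461 to 32417 CPM in control. Of 14 fat, bone and cartilage markers, 8 had at most 8 counts in any library, and the other 6 summed to 244 to 255 CPM with SFr against 158 to 166 CPM in control. Mitochondrially encoded genes held 0.908% ± 0.211 of the counts in control and 1.49% ± 0.183 in Dgal (SD, n = 3).

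Ribosomal proteins are made in near-equal amounts, because a subunit lacking one of them is not completed, and unassembled copies are degraded. Most of their mRNAs begin with a C followed by a run of pyrimidines, the 5′ terminal oligopyrimidine (TOP) tract, through which mTOR and the RNA-binding protein LARP1 set their translation and stability. In muscle, ribosome content is tied to growth and protein synthesis. Several members have second roles: RPL5 and RPL11 bind Mdm2 and so activate p53, RPS6 is the classical target of S6 kinase, and Rps27l is a paralogue that p53 induces.

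Listed start sites were searched for the TOP tract, so a tract that begins elsewhere is not counted. RefSeq start sites on GRCm38.p6 were listed for 59 members. A tract was counted, on the gene's own strand, where a C within 3 bases of a listed start was followed by at least 4 bases that were each C or T. By this count 25 of the 59 members (42.4%) held a tract, against 13.5% of all 27025 genes with a listed start and 14.8% of 9625 other tested genes. The sequences below are the listed starts of members whose values are given below, with a tract or without, each from 10 bases before the start onward and with any tract in capitals. They were chosen for the results and are not a sample of the family.
Rpl38, chr11:114668570-114668597, plus strand: aagcctcgttCTTTCCCCgttctcttcg
Rps27, chr3:90213631-90213658, minus strand: cgctttcgctCCTTTCCggcggtgacga
Rps15a, chr7:118116130-118116157, minus strand: tttctgccatCTTCCCTCgccggtgagt
Rpl22l1, chr3:28805498-28805525, plus strand: gcgcaagcccgttCTCTTCCCacggctg
Rps27l, chr9:66946076-66946103, plus strand: cctccccgccgCCTCTatcccggaagtt
Rps27l, other start, chr9:66946403-66946430, plus strand: gggcttcagggtcactaacgggcctcgc
Rpl7l1, chr17:46782639-46782666, minus strand: gctgcgcaagcgcagtagctgaagcacc
Rps28, chr17:33824545-33824572, minus strand: cgcgtgcggtctcgcgagagcgaaagtg
Rpl10a, chr17:28328461-28328488, plus strand: gcccccccagcggccgcaaactgcagcg
Rpl10a, other start, chr17:28328555-28328582, plus strand: atttgagcgcatgcgcaaagcgctctgc
Rpl22, chr4:152325716-152325743, plus strand: cctgggaaaagcaatagctggccgatcg
Rpl22, other start, chr4:152324426-152324453, plus strand: cttctggaatgttccagctcccactgac
Rplp0, chr5:115559457-115559484, plus strand: cgggtttcgaggaccgcctggttctcct
Rpl38, Rps27 and Rps15a carried the C at the listed start itself, Rps27l, at its first start, 1 base and Rpl22l1 3 bases after it. No tract was found for Rpl7l1, Rps28, Rpl10a, Rpl22, Rplp0 or the other start of Rps27l, which says only that these letters are not at the listed starts.

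Per kilobase of transcript, the members' mRNA levels in control ran from 1353 ± 179 CPM per kb for Rpl23a (SD, n = 3) down to 65.6 ± 5.88 CPM per kb for Rpl22l1, with Rpl3l far below. Rpl41, the member with the shortest coding sequence, stood at 1161 ± 225, Rps15 at 1154 ± 98.8 and the stalk base Rplp0 at 1118 ± 88.6 CPM per kb, and these 4 highest genes did not differ from their neighbours in the order beyond their spread. The stalk proteins RPLP1 and RPLP2, which recruit elongation factors, came from mRNAs at 785 and 316 CPM per kb. Besides Rpl22l1, the lowest members were Rpl29 (73.3 CPM per kb), Rpl7l1 (77.5) and Rps20 (81.1), the last computed on an annotated transcript of 3706 bases. Rpl3l, the striated-muscle paralogue of Rpl3, had 4 to 16 counts per library.

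Together the 80 genes held 3.28%, 2.93% and 2.82% of the counts in the 3 control libraries and 2.74%, 2.54% and 2.54% in the Dgal libraries. The groups did not overlap, and control replicate 1 was the highest library of all 30. The mean share was 3.01% ± 0.242 in control and 2.61% ± 0.117 in Dgal (SD, n = 3). Among the preparations alone it was 2.88% ± 0.254 with RGW, 3.05% ± 0.113 with SFr, 3.16% ± 0.111 with NSFr and 3.04% ± 0.00663 with Rb2. After D-galactose it was 2.73% ± 0.155, 2.86% ± 0.247, 2.93% ± 0.107 and 2.68% ± 0.0633 in the same order, each mean below its own baseline. Small-subunit and large-subunit counts kept a near-constant ratio, with group means from 0.483 to 0.496. In bulk RNA, fewer cells of a type and less of an mRNA per cell cannot be told apart.

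**Figure D1:**
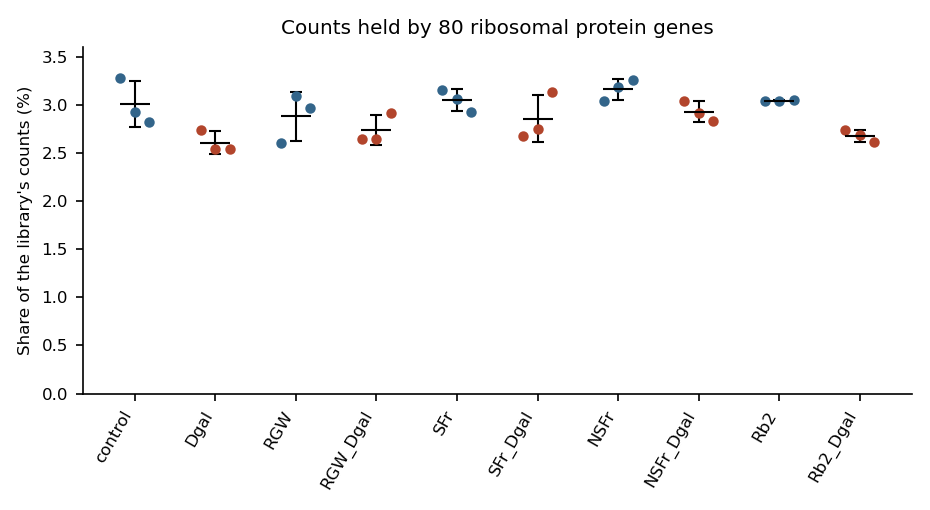
Share of each library's counts held by the 80 ribosomal protein genes, in percent. Points are the 3 libraries of a group (blue without and red with D-galactose), the horizontal bar is their mean and the whiskers are 1 SD. Control replicate 1 is the highest point at 3.28%, and each D-galactose group has a lower mean than its own baseline.

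D-galactose alone lowered most of the family by a similar, small amount. Of the 78 tested members 56 were lower than in control and 0 higher, where 25.1% of all 12184 tested genes were called in either direction and 13.1% were lower. The median member had a log2 fold change of -0.25, a fall of 15.6%, against -0.004 for all tested genes, and 76 of 78 values were below 0. The calls took in 20 of 30 small-subunit members, 35 of 45 large-subunit members outside the stalk and 1 of 3 stalk genes, with medians of -0.25, -0.24 and -0.23. The libraries of the groups did not overlap for 58 members, all lower in Dgal; of all tested genes 18.2% lay apart in that direction and 17.9% in the other. The call used an adjusted p under 0.05 in edgeR's quasi-likelihood test, and it is sensitive to single libraries: 17 members were lower without control replicate 1, where the median was -0.17, 28 without Dgal replicate 2 and 29 without Dgal replicate 3. Control replicate 1 also had the lowest mitochondrial share of all libraries, 0.727%, and the part of that in the result was not tested.

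The largest fall was that of Rpl22l1 (ENSMUSG00000039221.10, chr3:28805436-28807424), a paralogue of the large-subunit gene Rpl22. Its mRNA stood at 39.3, 36.4 and 32.8 CPM in control and at 29.6, 17.9 and 21.2 CPM in Dgal. All Dgal libraries lay below all control libraries, though Dgal replicate 1 was close to control replicate 3. The log2 fold change was -0.67 ± 0.160 (SE), with an adjusted p of 0.0041 in edgeR. With only these groups in the fit, the adjusted p was 0.0671.

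Rpl10a (chr17:28328471-28331033), which builds the mobile L1 stalk beside the exit site of tRNA, had 450, 405 and 363 CPM in control and 314, 298 and 302 CPM in Dgal. Every Dgal library lay well below every control library. It fell by 0.42 ± 0.066 (SE) on the log2 scale (edgeR adjusted p = 4.1e-05) and stayed called under every alternative and left-out library. Rpl3, whose protein reaches the peptidyl transferase centre, went from 628, 602 and 584 CPM to 527, 449 and 468 CPM, again without overlap. Its fall was the surest of the family, -0.33 ± 0.045 (edgeR adjusted p = 1.3e-06).

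Among members that assemble with 5S rRNA and bind Mdm2, Rpl5 fell by 0.29 and Rpl11 by 0.34, and Rpl23, whose protein also binds Mdm2, fell by 0.30 on the log2 scale. Rps6, the S6 kinase target, went from 715, 622 and 606 CPM to 564, 551 and 555 CPM, with no overlap and a log2 fold change of -0.22 ± 0.066 (edgeR adjusted p = 0.017). Rpl11 and Rps6 were no longer called without control replicate 1, at adjusted p of 0.0817 and 0.158, and Rpl5 and Rpl23 were. Other large falls were those of Rpl41 (-0.38), Rpl36 (-0.38), Rps15a (-0.38), Rps20 (-0.37) and Rpl35 (-0.36). Without control replicate 1, Rpl41 had an adjusted p of 0.263 and Rpl36 of 0.0829.

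Of the stalk genes only Rplp2 was called, with a log2 fold change of -0.29 ± 0.102 (edgeR adjusted p = 0.04) and overlapping groups, 144, 137 and 118 CPM in control against 122, 100 and 105 CPM in Dgal. Rplp1 (-0.23, adjusted p = 0.0904) and Rplp0 (-0.12, adjusted p = 0.0874) were not called by the same test. Rplp2 itself was not called without control replicate 1 (adjusted p = 0.184). Rps19, the member most often mutated in Diamond-Blackfan anaemia, had -0.15 (adjusted p = 0.249). Members with a TOP tract found at a listed start were lower in 20 of 25 cases with a median of -0.26. Those with a listed start but no tract found there were lower in 22 of 33 cases with a median of -0.22.

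**Figure D2:**
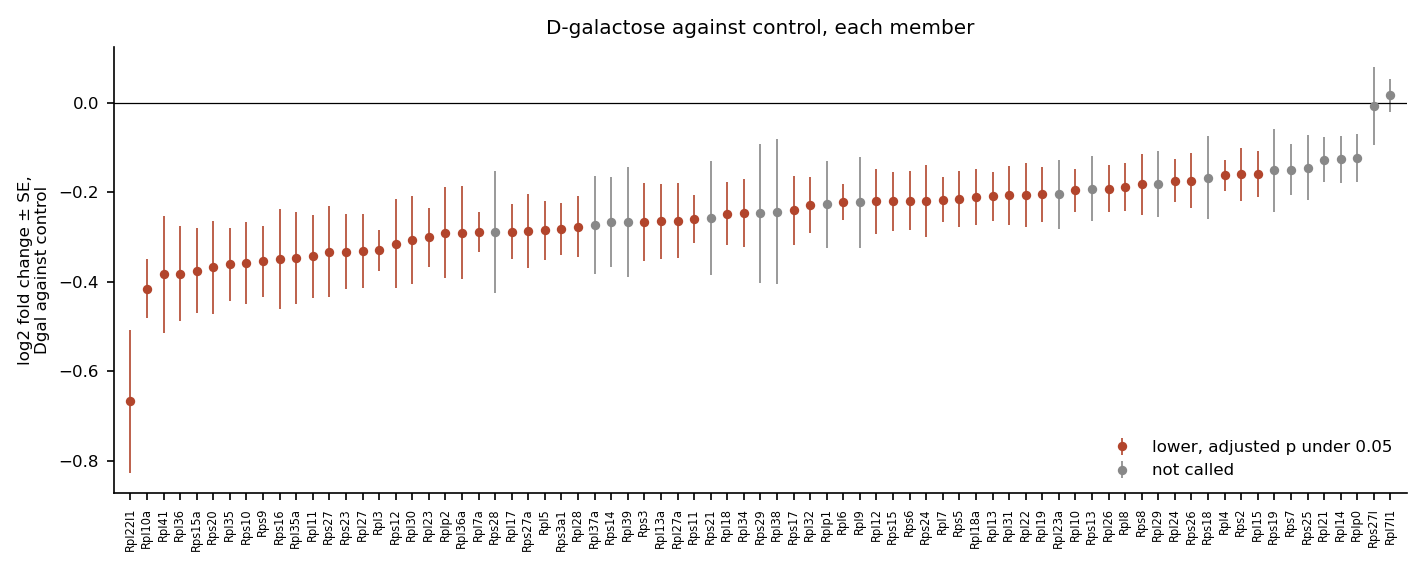
Log2 fold change of each member, Dgal against control, with its standard error, ordered by size. Red points were lower at an adjusted p under 0.05 and grey points were not called; Rpl3l, with a few counts per library, is left out. Rpl22l1 lies alone at the left at -0.67, and Rps27l and Rpl7l1 lie at 0 at the right.

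A few members did not follow the rest. Rps27l had 71.4, 67.6 and 63.5 CPM in control and 72.6, 65.9 and 63.3 CPM in Dgal, with groups that overlapped throughout, and a log2 fold change of -0.01 with a 95% interval from -0.18 to 0.16. Rpl7l1, whose protein is related to RPL7, had 106, 100 and 98.5 CPM against 107, 102 and 99.6 CPM, a change of 0.02 with an interval from -0.06 to 0.09. Their partners moved otherwise: Rps27 went from 331, 314 and 290 CPM to 257, 247 and 239 CPM without overlap (-0.33 ± 0.102, edgeR adjusted p = 0.02), and Rpl7 fell by 0.22. The call of Rps27 was lost in 4 of 12 alternatives, with an adjusted p of 0.096 without control replicate 1, and that of Rpl7 in 0.

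To see such departures directly, libraries were also scaled to the family itself, so that a call means a difference from the rest of the ribosomal protein genes. On that scale the median of all tested genes moved to 0.24 for Dgal against control and 54.9% of them were called, 53.4% higher and 1.52% lower, which follows from the scaling. The adjustment ran over all tested genes, so these calls outside the family also eased the cutoff for a member. The same holds for the other comparisons on this scale with a high background. It was not repeated over the members alone. Within the family 5 members were called. Rps27l (0.24 ± 0.057, edgeR adjusted p = 0.0013), Rpl7l1 (0.26 ± 0.069, adjusted p = 0.0031) and Rpl14 (0.12, adjusted p = 0.046) were higher relative to the family, and Rpl22l1 (-0.42 ± 0.109, adjusted p = 0.0026) and Rpl10a (-0.17) were lower. The calls of Rps27l, Rpl7l1 and Rpl22l1 held under every alternative and left-out library. That of Rpl10a was lost in 1 of 10 such settings and that of Rpl14 in 7. The count rose to 12 without control replicate 3.

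The other genes of the translation machinery gave smaller shifts with D-galactose. Of 33 translation factors 14 were lower and 0 higher, with a median of -0.11; they included Eef1a1 (-0.23), Eef2 (-0.17) and Eif4b (-0.23), which like the members are known to have TOP tracts. Of 32 nucleolar and ribosome assembly genes 7 were higher and 2 lower, with a median of 0.06, among them the RNA polymerase I subunits Polr1a (0.23) and Polr1b (0.33) on the higher side and Npm1 (-0.18) on the lower. Of 15 regulators of TOP mRNAs and mTOR output, Eif4ebp2 (-0.28) and Rps6kb1 (-0.27) were lower and 0 were higher. Mitochondrial ribosomal protein genes, 76 in all, had 3 higher and 7 lower with a median of -0.04. Cycling myoblast markers had 1 higher and 6 lower of 11 and summed to 389 to 404 CPM in Dgal against 479 to 484 CPM in control, and their part in the family's change was not tested.

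D-galactose after each preparation was compared with that preparation alone, so that these 4 comparisons and the one above share no libraries. After RGW 9 members were lower and 0 higher (background 15.2% in either direction, 8.93% lower), after SFr 12 and 0 (19.0%, 10.5% lower), and after NSFr 9 and 0 (12.7%, 6.98% lower). After Rb2 34 were lower and 1 higher (21.0%, 11.2% lower), the last being Rpl3l (1.16 ± 0.418, edgeR adjusted p = 0.045) on 4 to 16 counts per library. The medians were -0.07, -0.09, -0.11 and -0.19, against all-gene medians between -0.004 and 0.002. Values were below 0 in all 5 D-galactose comparisons for 59 of 78 members (75.6%), and for 23.2% of the other genes tested.

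An omnibus comparison of the D-galactose response between the 5 backgrounds called 0 members in edgeR and 0 in DESeq2, at a background of 0.796%, with 3 members under an unadjusted p of 0.05. The smallest p was that of Rpl35 (0.0326, adjusted 0.381). The different counts after the preparations are therefore not shown to be different effects.

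These counts moved with single libraries. After RGW the count was 15 without RGW replicate 1 or RGW_Dgal replicate 3, 5 without RGW replicate 2 or 3 and 3 without RGW_Dgal replicate 2. After SFr it was 25 without SFr_Dgal replicate 3, 6 without SFr replicate 1 or SFr_Dgal replicate 1, 5 without SFr replicate 2 and 7 without SFr_Dgal replicate 2. After NSFr it was 2 without NSFr replicate 2, NSFr replicate 3 or NSFr_Dgal replicate 3, 5 without NSFr_Dgal replicate 1 and 4 without NSFr_Dgal replicate 2. After Rb2 it was 20, 21 and 18 without Rb2 replicates 1, 2 and 3, and 19 and 15 without Rb2_Dgal replicates 2 and 3.

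Rpl3, Rpl4, Rpl6 and Rpl10, all of the large subunit, were lower after D-galactose in all 5 backgrounds; this was 5.13% of the members and 2.89% of the other genes. Rpl3 stood at 584, 641 and 630 CPM with RGW against 516, 501 and 532 CPM with RGW_Dgal, and at 627, 632 and 652 CPM with Rb2 against 508, 506 and 505 CPM with Rb2_Dgal. Neither pair overlapped. Rpl3 fell by 0.26 in cells given RGW, 0.20 with SFr, 0.22 with NSFr and 0.33 with Rb2, and these calls held in every setting run.

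Rpl22l1 was lower in 4 of 5 backgrounds. It stood at 37.0, 43.3 and 43.7 CPM with Rb2 and at 24.6, 25.2 and 24.4 CPM with Rb2_Dgal, far apart. That difference of -0.74 ± 0.154 (edgeR adjusted p = 0.0016) was kept in every setting run. After NSFr it went from 43.0, 43.8 and 42.8 CPM to 30.8, 32.4 and 30.5 CPM (-0.47, adjusted p = 0.044), also without overlap, but the call was lost in 8 of 12 alternatives. After RGW the change was -0.53 (adjusted p = 0.022) with overlapping libraries, since RGW replicate 1 was at 28.3 CPM, and the call was lost in 5 of 12 alternatives, with an adjusted p of up to 0.204. After SFr it was -0.38 and not called (adjusted p = 0.0899).

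**Figure D3:**
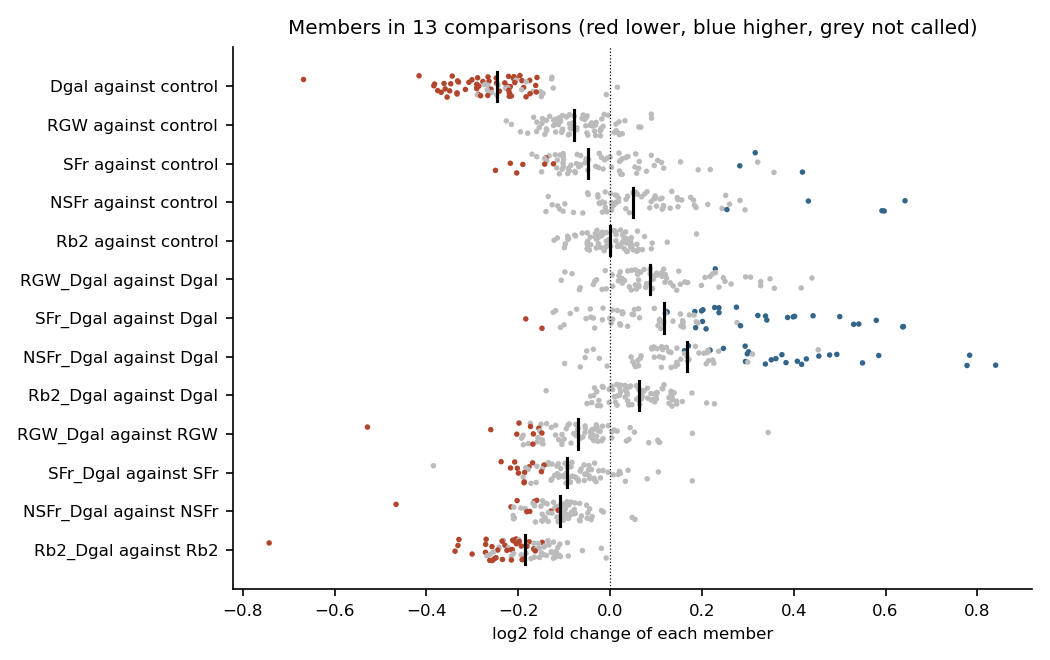
Log2 fold change of each tested member (Rpl3l left out) in 13 comparisons, one per row, with a black bar at the median of the 78 tested members. Red points were lower and blue points higher at an adjusted p under 0.05. Medians are lowest for Dgal against control at -0.25 and Rb2_Dgal against Rb2 at -0.19, and highest for NSFr_Dgal against Dgal at 0.17.

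Ratios of paralogue to partner within a library need no scaling between libraries. Rps27l mRNA was 21.7% ± 0.228 of Rps27 in control and 27.2% ± 1.00 in Dgal (SD, n = 3). Group means were 19.1% and 22.04% without and with D-galactose after RGW, 18.5% and 22.8% after SFr, 17.6% and 21.1% after NSFr, and 20.5% and 22.7% after Rb2. In each of the 5 backgrounds all 3 D-galactose libraries lay above the 3 of their baseline. On the scale of the family, Rps27l was higher after D-galactose in each, by 0.19 with RGW, 0.28 with SFr, 0.17 with NSFr and 0.18 with Rb2. The backgrounds, in either direction, were 6.23%, 14.8%, 9.77% and 35.2%. The edgeR adjusted p were 0.0353, 0.00088, 0.0461 and 0.0161 in that order. These calls after the preparations were not repeated under the alternatives or with a library left out.

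Rpl22l1 was 16.8% ± 0.608 of Rpl22 in control and 12.2% ± 2.51 in Dgal, 19.6% with Rb2 and 12.5% with Rb2_Dgal, and 19.9% with NSFr and 15.5% with NSFr_Dgal. Rpl22 itself fell by 0.21 with D-galactose alone, a call lost in 4 of 12 alternatives (adjusted p = 0.230 without control replicate 1). Rpl7l1 was 13.3% of Rpl7 in control and 15.7% in Dgal. RSEM divides reads between similar genes, and the similarity was moderate: in their coding sequences Rps27l and Rps27 were identical at 76.2% of 252 aligned bases, Rpl22l1 and Rpl22 at 70.2% of 366, and Rpl7l1 and Rpl7 at 62.6% of 708. The related copy Rps27rt had 161 to 366 counts per library beside 5542 to 10917 for Rps27.

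**Figure D4:**
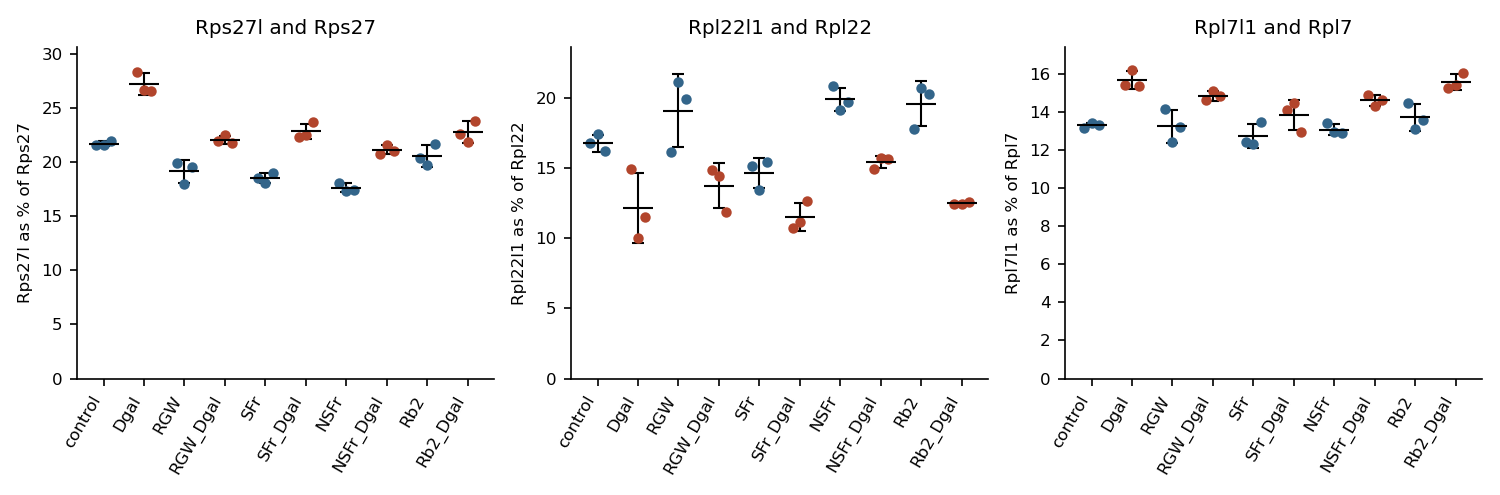
Level of 3 paralogues as a percent of their partner gene in each library, with mean and SD per group; blue without and red with D-galactose. Rps27l to Rps27 is higher in each D-galactose group than in its baseline, from 21.7% to 27.2% in the first pair, and the Rpl22l1 to Rpl22 means are lower.

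The preparations alone gave few calls in the family. RGW called 0 members (background 3.21%; 8 at an unadjusted p under 0.05, 0 in DESeq2 and 1 without RGW replicate 2), with a median of -0.08. Rb2 called 0 (background 1.53%; 0 at an unadjusted p under 0.05 and 0 in DESeq2), with a median of -0.001.

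SFr called 3 higher and 7 lower at a background of 43.1%, a lower share of the family than of all genes. Rpl10, which joins the large subunit last, was higher: 932, 904 and 880 CPM with SFr against 744, 703 and 735 CPM in control, far apart, at 0.32 ± 0.048 (edgeR adjusted p = 1.5e-06). The related copy Rpl10-ps3 had 873 to 1680 counts per library beside 13550 to 27335 for Rpl10. Rps28 (0.42, adjusted p = 0.014) and Rplp2 (0.28, adjusted p = 0.026) were also higher, while Rps24 (-0.25), Rpl5 (-0.22), Rps3a1 (-0.20), Rpl7l1 (-0.19), Rpl7a (-0.14), Rpl26 (-0.14) and Rpl7 (-0.12) were lower. Markers of cell state moved in the same comparison. Of 12 myotube markers 1 was higher and 10 lower, with a median of -0.66. Of 6 tested fat, bone and cartilage markers 4 were higher and 1 lower, among them Lpl (1.11), Cebpa (0.78) and Sox9 (0.45) on the higher side. Of 11 cycling myoblast markers 2 were higher and 8 lower. The part of all these markers in the members' changes was not tested. The total of called members was 6 without control replicate 1 or SFr replicate 3 and 5 without SFr replicate 2. Rpl10 and Rpl7l1 stayed called throughout. Relative to the family 11 members were called (8 higher and 3 lower, background 27.4%), led by Rps28 (0.45), Rps29 (0.39), Rpl38 (0.35) and Rpl10 (0.34), with 6 left without SFr replicate 2.

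NSFr called 5 higher and 0 lower at a background of 8.08%, with 4.56% of all genes higher. The 5 were Rpl38 (0.64 ± 0.157, edgeR adjusted p = 0.014), Rps29 (0.60), Rps28 (0.59), Rpl39 (0.43) and Rps26 (0.25). Rps28, a small protein at the mRNA exit of the small subunit, had 177, 202 and 188 CPM with NSFr against 132, 138 and 106 CPM in control. Rpl38, a large-subunit protein known for its part in translating Hox mRNAs, had 178, 174 and 220 CPM against 133, 114 and 119 CPM. Rps29, a zinc-binding protein of the small-subunit head, had 236, 237 and 242 CPM against 169, 162 and 142 CPM. None of these groups overlapped. The count was 3 without control replicate 2 or 3 and 2 without NSFr replicate 3. Rps28 stayed called throughout, and Rpl38 had an adjusted p of 0.0759 without NSFr replicate 3.

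The preparations before D-galactose were compared with D-galactose alone. These 4 comparisons share the 3 Dgal libraries, so their values are given side by side and are not independent. RGW_Dgal called 1 member, Rpl10a (0.23 ± 0.066, edgeR adjusted p = 0.042), at a background of 5.06%. It had 342, 346 and 382 CPM against 314, 298 and 302 CPM, without overlap. The count was 0 with the replicate number as a block or with no filter on low counts, 4 in DESeq2 and 15 with only these groups in the fit. It was 0 without any one of Dgal replicate 2, Dgal replicate 3, RGW_Dgal replicate 2 or RGW_Dgal replicate 3 and 2 without Dgal replicate 1. Rb2_Dgal called 0 (background 2.26%; 0 at an unadjusted p under 0.05, 0 in DESeq2 and 3 with only these groups in the fit), with a median of 0.06.

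SFr_Dgal called 25 higher and 2 lower at a background of 41.3% (20.3% higher), with a median of 0.12. NSFr_Dgal called 24 higher and 0 lower at a background of 6.33% (3.5% higher), with a median of 0.17. By role, the higher members with NSFr_Dgal were 9 of 30 in the small subunit, 13 of 45 in the large and 2 of 3 in the stalk. The SFr_Dgal total was 15 without Dgal replicate 2 and 13 without Dgal replicate 3 or SFr_Dgal replicate 3. The NSFr_Dgal total was 10 and 8 without Dgal replicates 2 and 3, and 8 and 12 without NSFr_Dgal replicates 1 and 2.

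Rps28 had 107, 98.4 and 102 CPM in Dgal, 153, 151 and 174 CPM in SFr_Dgal and 210, 174 and 167 CPM in NSFr_Dgal. Both treated groups lay far above Dgal, at 0.64 ± 0.134 and 0.84 ± 0.134 (edgeR adjusted p = 0.00059 and 0.0007), in every setting run. Rps29 was higher by 0.64 and 0.78, Rpl38 by 0.50 and 0.78, Rps21 by 0.53 and 0.55, Rpl39 by 0.40 and 0.59 and Rpl41 by 0.39 and 0.45. The stalk gene Rplp2 had 122, 100 and 105 CPM in Dgal, 154, 147 and 187 CPM in SFr_Dgal and 158, 138 and 144 CPM in NSFr_Dgal, changes of 0.58 and 0.43 without overlap. Rplp1 was higher by 0.34 and 0.36, whereas Rplp0 was called in neither. Rpl7l1 went the other way with SFr_Dgal (-0.18 ± 0.037, edgeR adjusted p = 0.00015), at 85.8, 91.7 and 93.8 CPM against 107, 102 and 99.6 CPM.

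Many of the members that rose most had short coding sequences. This split was chosen after the values were seen, at 300 bases, and is a description with no test. The 9 members at or under it are Rpl41 (75 bases), Rpl39 (153), Rps29 (168), Rps28 (207), Rpl38 (210), Rps21 (249), Rps27 and Rps27l (252 each) and Rpl37a (276). For NSFr_Dgal against Dgal 8 of 9 were higher, with a median of 0.55, against 16 of 69 longer members with a median of 0.15. For SFr_Dgal against Dgal it was 8 of 9 with a median of 0.40, against 17 of 69 with 0.11. Medians for RGW_Dgal against Dgal were 0.33 and 0.08, and for NSFr against control 0.29 and 0.03. With D-galactose alone 2 of 9 short members were lower against 54 of 69 longer ones, although the medians were -0.27 and -0.23. Pearson's r between the log2 fold change and log2 coding length was taken across the 78 members, Rpl3l included. The members share libraries and are not independent. Against Dgal r was -0.72 for NSFr_Dgal, -0.68 for SFr_Dgal, -0.63 for RGW_Dgal and -0.22 for Rb2_Dgal. Against control r was 0.34 for Dgal, 0.29 for RGW, -0.39 for SFr, -0.62 for NSFr and 0.11 for Rb2. For D-galactose after RGW, SFr, NSFr and Rb2, against the preparation alone, r was -0.59, -0.48, 0.002 and 0.11. Spearman's rank correlation, less moved by a single outlying member, was -0.59, -0.44, -0.13 and -0.24 there, opposite in sign to r after NSFr and Rb2. Against Dgal it was -0.72 for NSFr_Dgal, -0.65 for SFr_Dgal, -0.59 for RGW_Dgal and -0.43 for Rb2_Dgal. Against control it was 0.35 for Dgal, 0.15 for RGW, -0.39 for SFr, -0.63 for NSFr and 0.16 for Rb2. The part of Rpl3l, with few counts, in these differences was not tested.

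**Figure D5:**
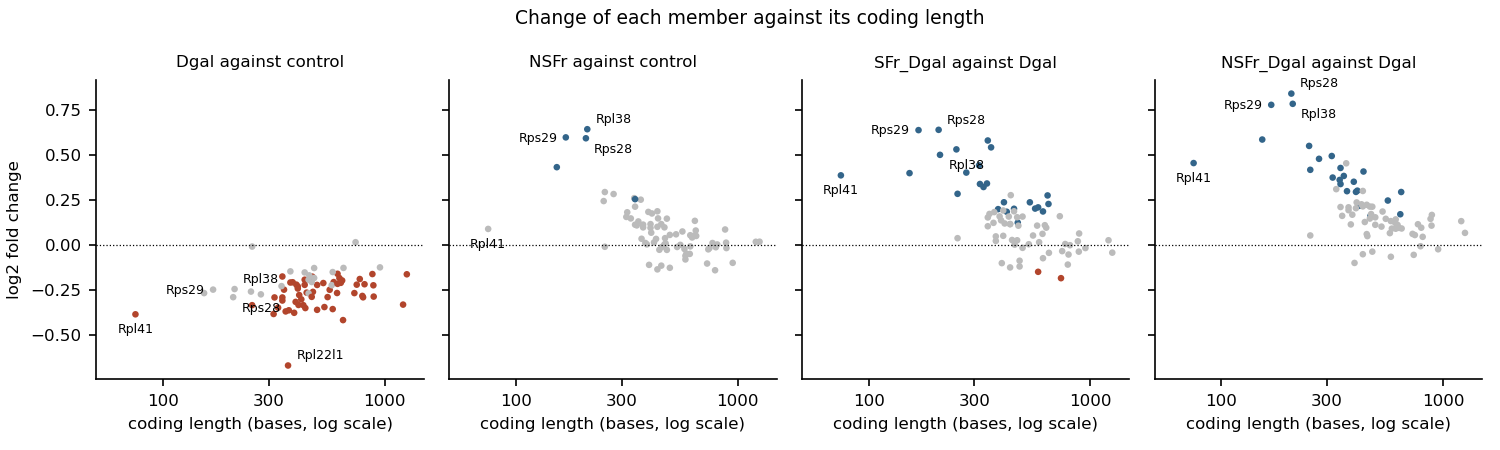
Log2 fold change of each tested member (Rpl3l left out) against its coding length on a log axis, in 4 comparisons; red lower, blue higher, grey not called. Rps28, Rps29 and Rpl38 lead the short members at 0.78 to 0.84 in NSFr_Dgal against Dgal, where r is -0.72. For Dgal against control r is 0.34, of the opposite sign. Both r were computed with Rpl3l included.

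Genes outside the family with coding sequences of 300 bases or fewer, 216 of those tested, moved less but in the same direction with SFr_Dgal. Their median was 0.16 against -0.01 for longer genes, and 38.4% against 19.9% were higher. With NSFr_Dgal their median was 0.06, and 7.87% against 3.25% were higher. With NSFr alone it was 0.01, and 5.56% against 4.53% were higher. For Dgal against control their median was -0.07 against -0.002 for longer genes. There 14.4% against 12.7% were lower, and 5.09% against 12.1% were higher. For D-galactose after RGW, SFr, NSFr and Rb2, against the preparation alone, their medians were 0.03, 0.04, -0.02 and -0.06. What sets short mRNAs apart in these libraries was not tested.

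The 9 short members made up 6.64% ± 0.299 of the family's CPM in control and 6.40% ± 0.0763 in Dgal (SD, n = 3). They made up 7.41% ± 0.122 with SFr, 7.98% ± 0.226 with SFr_Dgal, 8.01% ± 0.216 with NSFr, 8.27% ± 0.466 with NSFr_Dgal and 7.38% ± 0.171 with RGW_Dgal. All libraries of these 5 groups lay above all control and Dgal libraries. RGW alone was spread from 5.56% to 7.21%, with RGW replicate 1 the lowest library of all, and Rb2 and Rb2_Dgal stood at 6.52% ± 0.118 and 6.76% ± 0.247.

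Scaled to the family, SFr_Dgal against Dgal called 16 members higher and 10 lower (background 30.7%, of which 8.38% higher and 22.4% lower). The higher ones were led by Rps29 (0.54), Rps28 (0.53), Rplp2 (0.47), Rps20 (0.44) and Rps21 (0.42), and the lower ones by Rpl7l1 (-0.29), Rps7 (-0.25), Rpl26 (-0.23), Rpl21 (-0.22) and Rps3a1 (-0.21). NSFr_Dgal against Dgal called 15 higher and 7 lower (background 30.8%, of which 0.689% higher and 30.1% lower), led by Rps28 (0.66), Rpl38 (0.60) and Rps29 (0.59). NSFr against control called 4 higher and 0 lower (background 1.1%), namely Rpl38, Rps29, Rps28 and Rpl39. RGW_Dgal and Rb2_Dgal against Dgal called 0 relative to the family (backgrounds 1.26% and 0.624%).

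Other lists beside these comparisons were mixed. With SFr_Dgal against Dgal 31 of 62 nuclear genes of oxidative phosphorylation were higher and 1 lower (median 0.19), and of 76 mitochondrial ribosomal protein genes 15 were higher and 5 lower (median 0.05). Nucleolar and assembly genes had 3 higher and 13 lower (median -0.09), and translation factors 5 higher and 7 lower. With NSFr_Dgal against Dgal 8 oxidative phosphorylation genes were higher and 1 lower (median 0.12), and 2 translation factors higher and 0 lower. Of 11 cycling myoblast markers 4 were higher and 0 lower with NSFr_Dgal, including Ccnb2 (0.63), Top2a (0.52) and Ccnb1 (0.51), with sums of 416 to 437 CPM against 389 to 404 CPM in Dgal. With SFr_Dgal 1 was higher and 8 lower, with sums of 333 to 338 CPM. The 6 tested fat, bone and cartilage markers had 4 higher and 2 lower with SFr_Dgal (210.3 to 218 CPM against 139 to 149.8 CPM in Dgal) and 1 higher and 0 lower with NSFr_Dgal. In SFr_Dgal and Dgal the myotube markers summed to 25176 to 26510 CPM and 28814 to 29609 CPM. Of these 12 markers 1 was higher and 7 lower with SFr_Dgal against Dgal (median -0.49). With NSFr_Dgal 1 was higher and 2 lower (median 0.005). The part of these markers in the members' changes was not tested.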

How the data were processed

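The authors deposited a single table of RSEM expected counts, not normalized. The submitters' processing notes name RSEM 1.3.3, STAR 2.7.9a, Trim Galore 0.6.10 and FastQC 0.11.9, with builds GRCm38 and mm10; annotation and strand setting are not given in the sources used. RSEM divides reads that fit several genes, so members with pseudogene copies are uncertain.

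Counts were rounded and tested with edgeR 4.0.16 in R 4.3.3 (quasi-likelihood F-test, robust, TMM, filterByExpr) in a single model over 30 libraries, with Benjamini-Hochberg adjustment over 12184 genes. The biological coefficient of variation was 4.25%. SE was worked back from F and the log2 fold change, and 95% intervals are 1.96 SE either side. CPM are TMM-scaled. The fit relative to the family used the members' summed counts times TMM factors over the members. The script was tested on simulated data. The rule for named members took the 5 largest called rises and falls per comparison, paralogue pairs, stalk, p53-linked members and Rps6. Members and lists were chosen with earlier results of these data known. Alternatives were RLE scaling, TMM without the members, no filter, DESeq2 1.42.0, a replicate block, a fit of the compared groups alone, and omission of each library; DESeq2 ran without independent filtering. Relative to the family, alternatives and omissions were run only for Dgal and SFr against control and SFr_Dgal against Dgal. Lengths and gene coordinates come from GENCODE vM21, start sites from RefSeq.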

Additional observations from a re-analysis of the deposited data

How the results depend on the processing

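Of 221 counts of called members under an alternative or with a library left out, 163 stayed within 1.5 times the main count. Of 108 called values of single members, 47 kept the call in every setting, 61 lost it in at least 1, and 0 changed direction. Leaving mitochondrially encoded genes out of the total moved the members' share by less than the spread between replicates in 9 of 10 groups, and in Rb2, the group with the smallest SD, it went from 3.04% to 3.07%. RLE scaling and TMM without the members moved no count by more than 1.5 times.

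With only the groups compared in the fit, the counts were 8 for NSFr against control, 15 for RGW_Dgal, 43 for NSFr_Dgal and 3 for Rb2_Dgal against Dgal, 33 for NSFr_Dgal against NSFr and 72 for Rb2_Dgal against Rb2, and, relative to the family, 3 for Dgal against control and 12 for SFr_Dgal against Dgal. With no filter they were 0 for RGW_Dgal against Dgal and 5 for NSFr_Dgal against NSFr. DESeq2 gave 4 for RGW_Dgal against Dgal and, relative to the family, 12 for Dgal and 18 for SFr against control. The cause was not tested.

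With 1 library left out, counts ranged from 17 to 62 for Dgal, 0 to 1 for RGW, 5 to 12 for SFr, 2 to 6 for NSFr and 0 to 0 for Rb2 against control. They ranged from 0 to 2 for RGW_Dgal, 13 to 30 for SFr_Dgal, 8 to 26 for NSFr_Dgal and 0 to 0 for Rb2_Dgal against Dgal. Against the preparation alone they ranged from 3 to 15 for RGW_Dgal, 5 to 25 for SFr_Dgal, 2 to 9 for NSFr_Dgal and 15 to 31 for Rb2_Dgal, and from 0 to 0 for the test over the 5 backgrounds. Relative to the family they ranged from 4 to 12 for Dgal and 6 to 11 for SFr against control and from 20 to 25 for SFr_Dgal against Dgal.

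Replicate numbers did not pair the libraries: in no comparison did all 3 same-numbered pairs deviate together with a correlation over 0.1. With the number as a replicate block the counts were 52 for Dgal, 9 for SFr and 5 for NSFr against control, 0 for RGW_Dgal, 26 for SFr_Dgal and 20 for NSFr_Dgal against Dgal, and 8, 11, 6 and 29 for RGW_Dgal, SFr_Dgal, NSFr_Dgal and Rb2_Dgal against the preparation alone.

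With 3 libraries a group, omission of a single library moved many of these counts, and the report names each such library. Depth limits the lowest members: Rpl3l had 4 to 16 counts per library.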
